A study of Mus musculus with 6 samples.

Results

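The 10 genes described here belong to fibroblast growth factor (Fgf) signalling in the telencephalon, and they were examined in a list of Gli3 binding sites from the mouse cortex. They comprise the ligands *Fgf8*, *Fgf15*, *Fgf17* and *Fgf18*, the receptors *Fgfr1*, *Fgfr2* and *Fgfr3*, and the Sprouty genes *Spry1*, *Spry2* and *Spry4*. A listed site was taken when its midpoint lay inside the gene body or within 100 kb of the gene's transcription start site (TSS), where the gene-level TSS is the outermost 5′ end of the GENCODE M21 record on the mm10 build. This rule took 18 of the 4114 listed sites, at 5 of the 10 genes. *Fgfr2* held 9 of them, *Fgfr3* held 6, and *Fgf15*, *Fgf18* and *Fgfr1* held 1 each. No site was listed for *Fgf8*, *Fgf17*, *Spry1*, *Spry2* or *Spry4*.

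The series holds 3 Gli3 ChIP libraries and 3 input DNA libraries, all from the cortex of wild-type mice at embryonic day 15. ChIP-seq recovers DNA fragments bound by a protein with an antibody, and the input is the same kind of chromatin without the antibody step. The authors joined the replicates into 1 list of positions that carries no height, count or p-value for any site, and expression of the genes was not analysed here. The spread between replicates and the read depth are therefore unknown here, every count below is a description, and a gene with no listed site may still hold one below the authors' thresholds. The list used here also holds fewer sites than the study's text names, and which sites differ is not known here. The tissue was whole cortex, so binding in few cells and weak binding in many cannot be told apart.

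Fgf ligands are secreted proteins that bind receptor tyrosine kinases and activate the Ras-MAPK cascade, and Sprouty proteins are feedback inhibitors that the same signal induces. In the early telencephalon the ligands of the Fgf8 subfamily are made at the rostral midline, where they pattern the cortical area map, while the receptors are carried by progenitors of the ventricular zone. Gli3 is a zinc finger factor of the Shh pathway that acts mainly as a repressor in the cortex, and *Gli3* mutant embryos are known for an enlarged *Fgf8* domain at the telencephalic midline. Gli proteins recognize the core GACCACCCA, which was searched on both strands.

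The exact core occurred in 3 of the 18 sites and 4 times in all. The sequences around these 4 cores are shown because they mark where a Gli word lies inside each receptor's site, with 30 bases to either side, read 5′ to 3′ on the named strand from the GRCm38.p6 assembly (the assembly of mm10), and the core in capitals.
*Fgfr3* intron, chr5:33725965-33726033 (−): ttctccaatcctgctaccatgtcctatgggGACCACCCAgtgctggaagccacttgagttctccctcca
*Fgfr3* intron, chr5:33726299-33726367 (+): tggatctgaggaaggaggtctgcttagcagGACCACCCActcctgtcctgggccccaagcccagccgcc
*Fgfr1* intron, chr8:25543134-25543202 (−): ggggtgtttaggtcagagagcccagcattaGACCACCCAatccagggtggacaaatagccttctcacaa
*Ctbp2* intron within the *Fgfr2* record, chr7:133089494-133089562 (+): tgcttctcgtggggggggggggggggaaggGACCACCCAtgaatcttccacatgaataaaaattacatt
Both *Fgfr3* cores fell in a single site of 1457 bp. By comparison, 12.2% of all 4099 sites on assembled chromosomes held an exact core (95% Wilson interval 11.28 to 13.29, counting error only) against 1.835% of 8176 flanks of the same length, so 3 of 18 is near the share of the whole list.

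**Figure D1:**
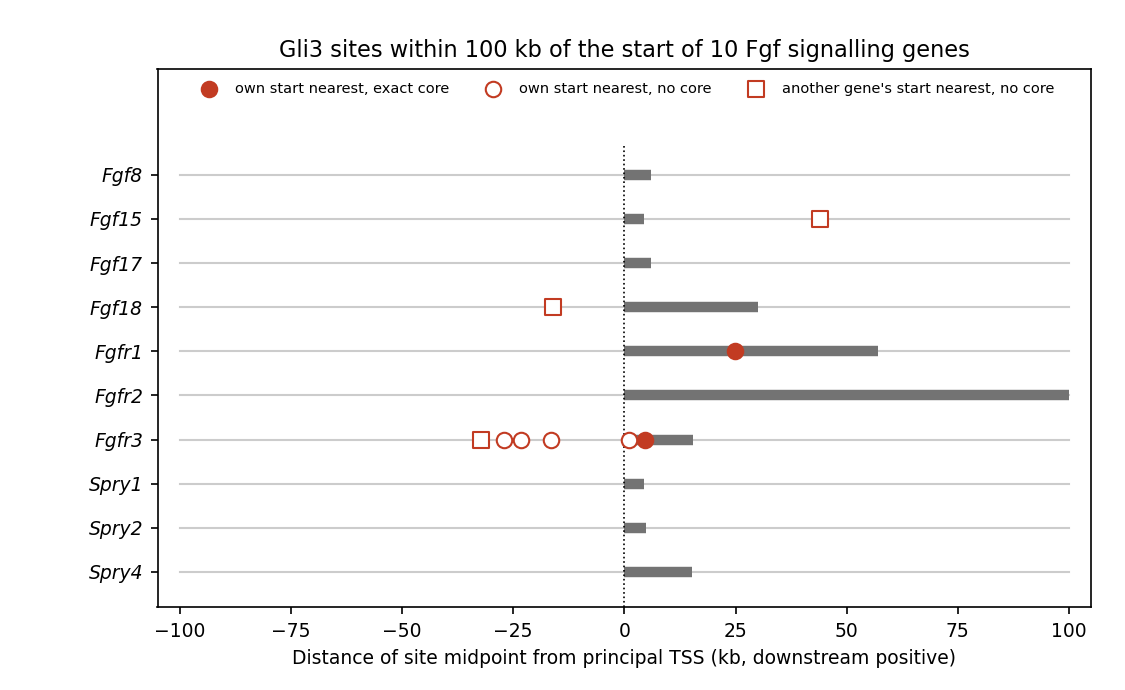
Each row is a gene, and the x axis is the distance of a site's midpoint from the start of the principal transcript in kb, with downstream positive. Grey bars are gene bodies (that of *Fgfr2* is drawn to the end of the 100 kb window), circles are sites whose nearest protein-coding start is the gene's own, squares are sites nearer to another gene, and filled circles hold an exact core. The 9 sites drawn lie at 4 genes, 6 of them at *Fgfr3*, and the *Fgfr2* row is empty because all of its sites lie beyond the window of the principal transcript.

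*Fgfr3* encodes a receptor tyrosine kinase made by cortical progenitors and, later, astrocytes. The gene occupies chr5:33721674-33737068 on the plus strand (ENSMUSG00000054252.18, 15395 bp). Its 6 sites lay within 39.28 kb, of which they covered 53.23%. Of the protein-coding genes on assembled chromosomes, 64 of 21938 (0.292%) had at least 6 sites by the same rule. Merging sites within 1 kb of each other left 4 at *Fgfr3*, and the share above is for unmerged sites.

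Of the 6 sites, 4 were intergenic and lay upstream of the gene. The outermost, chr5:33687799-33691047, was 3249 bp wide with its midpoint at -32.251 kb, where negative distances are upstream of the TSS, and the nearest protein-coding TSS was that of *Tmem129*, at 31.007 kb. The next, chr5:33693286-33696243, was 2958 bp wide and centred 26.91 kb upstream. It was followed after 413 bp by chr5:33696657-33700077, which was 3421 bp wide and centred 23.307 kb upstream. These 3 sites form a tight group, since the gap between the first and second was 2238 bp. The fourth, chr5:33702928-33707548, was 4621 bp wide (percentile 94.27 of all sites) and centred 16.436 kb upstream.

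The other two sites were at the gene itself. The site at the promoter, chr5:33720193-33725393, was 5201 bp wide (percentile 96.44 of all sites). It reached from 1481 bp upstream to 3719 bp downstream of the TSS and covered the first exons, and its midpoint fell in intron 2, on an exon of the antisense record *G630022F23Rik*. Another transcript start of *Fgfr3* was 27 bp from that midpoint. The last site, chr5:33725622-33727078, began after a gap of 228 bp, lay wholly within intron 2 from 3948 to 5404 bp downstream of the TSS, and was narrower than the list's median of 1995 bp. The promoter site and the intron site are thus adjacent peaks of unlike width, and the narrow one held both exact cores.

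**Figure D2:**
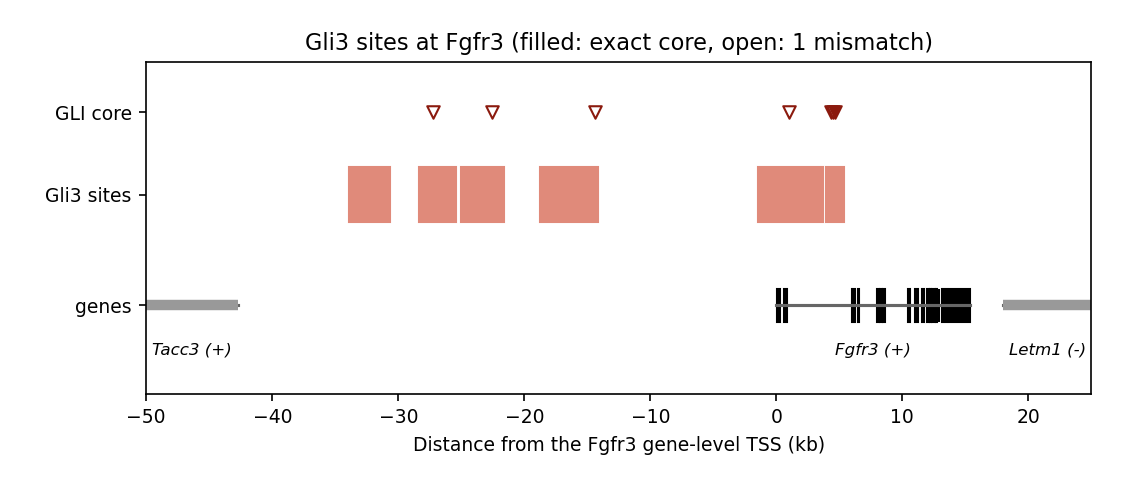
The x axis is the distance from the *Fgfr3* gene-level TSS in kb. Boxes are the 6 sites at their true width, black bars the exons of the principal transcript, and grey bars neighbouring protein-coding genes. Filled triangles are exact GLI cores and open triangles matches with 1 mismatch, of which the one in the intron site lies behind the filled ones. The 4 upstream sites stand between *Tacc3* and *Fgfr3*, and the exact cores lie in the last site, 3948 to 5404 bp downstream of the TSS.

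For 5 of the 6 sites the TSS of *Fgfr3* was the nearest protein-coding TSS, although 7 other protein-coding TSSs lay within 100 kb. Over all annotated transcripts, the nearest start to each site of the tight upstream group was that of *Gm42965*, at 6449, 11790 and 15393 bp. Of the 3089 protein-coding genes that were nearest to at least 1 site, 41 were nearest to 5 or more, and 21 of these to more than 5. Each of the 6 sites had 5 others within 50 kb, which were the rest of the same 6. At least 5 others within 50 kb were found for 2.44% of all sites (100 sites), while the median site had 0. These counts are also for unmerged sites.

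Within the intron site, 1 core lay 17 bp from the midpoint on the plus strand and the other 351 bp from it on the minus strand, with starts 334 bp apart. At least 2 exact cores were found in 27 of all sites (0.6587%), or 5.378% of the 502 sites with a core. A core within 50 bp of the midpoint was found in 7.171% of those 502 sites, whose median distance was 343 bp. The site thus held a pair of cores, 1 of them close to its centre.

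None of the other 5 *Fgfr3* sites held an exact core, and 4 of them held a single match with 1 mismatch. The matches in 3 of them and the one in the intron site are shown so that they can be set beside the exact cores above, with the 9 matched bases in capitals. In each token the core's base comes first, then its position counted from 1 at the core's 5′ end, then the base in the genome.
Upstream, G1T, chr5:33694382-33694450 (+): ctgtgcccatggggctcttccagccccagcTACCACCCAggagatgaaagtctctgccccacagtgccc
Upstream, C7G, chr5:33699082-33699150 (−): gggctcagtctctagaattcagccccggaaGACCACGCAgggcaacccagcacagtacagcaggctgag
Promoter site, G1C, chr5:33722684-33722752 (+): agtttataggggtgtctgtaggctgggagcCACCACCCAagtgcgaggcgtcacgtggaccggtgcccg
Intron site, C4A, chr5:33726147-33726215 (−): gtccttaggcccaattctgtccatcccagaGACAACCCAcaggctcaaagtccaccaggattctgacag
The match in the promoter site lay 75 bp from its midpoint. The outermost site had no match even with 1 mismatch. Such near matches are frequent, since 64.72% of all sites and 39.14% of flanks held the core with up to 1 mismatch, against 13 of the 18 sites here. By density the sites here were lower, at 0.3727 matches per kb against 0.4748 over all sites.

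The *Fgfr3* sites differed in base composition. GC content ranged from 52.85% in the fourth upstream site to 59.53% in the second, and all 6 were above the list's median of 51.39%. The ratio of observed to expected CpG dinucleotides, which is high in CpG islands, was 0.5452 in the promoter site and 0.4278 in the second upstream site, against a median of 0.304 over all sites. In the other 4 it ranged from 0.108 in the intron site to 0.197 in the outermost. The intron site with both cores was therefore poor in CpG (percentile 4.465 of all sites), while the adjoining promoter site was above the median (percentile 72.31).

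Inside the promoter site, the 200 bases directly upstream of the gene-level TSS are shown because the listed site covers them whole (GRCm38.p6, plus strand, chr5:33721474-33721673). They are part of the 250 bases that the RefSeq promoter table takes before its own start, which lies 50 bp from the gene-level TSS.
*Fgfr3* promoter: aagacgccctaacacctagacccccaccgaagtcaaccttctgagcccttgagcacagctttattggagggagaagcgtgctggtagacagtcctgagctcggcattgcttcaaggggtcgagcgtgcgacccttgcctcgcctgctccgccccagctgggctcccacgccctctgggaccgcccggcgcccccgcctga
This stretch had a GC content of 65% and 14 CpG dinucleotides. It held no match to the GLI core with up to 1 mismatch, and no match to the SP word GGGCGGGG on either strand, which occurs in 16.07% of the 32851 promoters of the table, each taken over 250 bases. The table lists a second *Fgfr3* start, whose 250 upstream bases (chr5:33722056-33722305) also lie inside the site. They had a GC content of 72.8%, 24 CpG dinucleotides and 1 SP word, and no match to the core with up to 1 mismatch.

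*Fgfr1* encodes the receptor that is widely made by telencephalic progenitors. Its gene lies at chr8:25513654-25575718 on the plus strand (ENSMUSG00000031565.18). It had 1 site, chr8:25541666-25545719, which was 4054 bp wide (percentile 90.14) and lay in intron 2, with the midpoint 30.038 kb downstream of the gene-level TSS and 24.933 kb downstream of the start of the principal transcript. No other protein-coding TSS was nearer, and no other site was listed within 50 kb. The exact core shown above lay 524 bp from the midpoint, and in 33.27% of the sites with a core the nearest one was as far or farther. The site held 7 E-box words CAGCTG, a word bound by proneural bHLH factors, or 1.727 per kb against 0.6747 over all sites. The word is common, since 68.63% of all sites held it. Its density was higher in the *Fgfr3* intron site, at 2.059 per kb, and lower in the rest of the sites taken by the rule. The *Fgfr1* site is thus a wide intronic site whose core is off centre, and like the median site it had no other within 50 kb.

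*Fgfr2*, which encodes another receptor of the family, had the highest count of the 10 genes, and that count rests on a single transcript of the annotation. The M21 record runs over chr7:130162451-133123350 on the minus strand (ENSMUSG00000030849.18, 27 transcripts), a length of 2960.9 kb. A single transcript of 7 exons, ENSMUST00000124096.7, sets its 5′ end, 17 bp from the principal TSS of *Ctbp2*, and the next start is 2857.09 kb away. The RefSeq record of *Fgfr2* ends at 130266808 and is 104.358 kb long. Among all protein-coding genes, the distance between the gene-level TSS and the principal TSS was greatest for *Fgfr2* (rank 1), and 153 genes (0.6974%) had a distance above 100 kb.

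All 9 sites lay upstream of the start of every other *Fgfr2* transcript, and 8 of the 9 were inside or at other genes. The nearest to the principal *Fgfr2* TSS, chr7:130517231-130520197, was 252.523 kb from it and lay 0.866 kb from the principal TSS of *Ate1*, an arginyltransferase gene. Introns of *Tacc2* held the next pair, of 1797 and 1082 bp, and introns of *Htra1*, which encodes a secreted serine protease, held the pair after that, of 2034 and 3292 bp. The sixth, chr7:132165729-132168851, was in no other gene and lay 12.551 kb from the TSS of *Cpxm2*. Introns of *Fam53b* held a site of 2328 bp and one of 6102 bp, chr7:132729258-132735359 (percentile 98.41 of all sites by width). The ninth, chr7:133087160-133090405, was in an intron of *Ctbp2*, a corepressor gene, 34.585 kb from its principal TSS, and it held the exact core shown above. For the pair in *Tacc2* the nearest gene-level protein-coding TSSs were those of *Tacc2* itself, at 95.839 kb, and *Btbd16*, at 42.32 kb. The site of 1082 bp in this pair lay 2366 bp from the start of another *Tacc2* transcript.

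With principal transcripts in place of the gene-level records, an alternative chosen after the data had been seen, *Fgfr2* had 0 sites and the 10 genes held 9 sites at 4 genes. The other 9 counts per gene did not change, and RefSeq records gave the same counts. Of the 9 remaining sites 2 held an exact core. The background share of genes with a site was 37.4% by the gene-level rule and 37.2% with principal transcripts, and 5 or 4 of 10 genes is read against these shares. A count of this size in 10 genes is near the background.

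Of the ligands, *Fgf15* and *Fgf18* had 1 site each, and both sites were at the start of another gene. *Fgf15* is an Fgf19 subfamily ligand of cortical and diencephalic progenitors, at chr7:144896531-144900953 on the plus strand (ENSMUSG00000031073.6). Its site, chr7:144937006-144944035, was 7030 bp wide (percentile 99.19) and lay 43.989 kb downstream of the TSS. The midpoint was 0.595 kb from the TSS of *Ccnd1*, the cyclin D1 gene, which the site covered. An exact core was not found in it, but 4 near matches were, each with 1 mismatch. *Fgf18*, a ligand of the Fgf8 subfamily also made by cortical plate neurons, lies at chr11:33117430-33147400 on the minus strand (ENSMUSG00000057967.12). Its site, chr11:33163022-33164095, was 1074 bp wide (percentile 15.76), lay 16.158 kb upstream and was 0.352 kb from the TSS of *Npm1*, the nucleophosmin gene. It had no core with up to 1 mismatch and a CpG ratio of 0.9009 (percentile 98.02). The ligand sites thus sat at promoters of unlike width, and neither had the ligand's own TSS as the nearest.

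Assignment to a neighbour was common in the whole list. Of the 12841 pairs of a site and a protein-coding gene made by the rule, 27.08% had the gene's own TSS as the nearest and 39.69% lay within 2 kb of another protein-coding TSS. Here the corresponding counts were 7 of 18 and 3 of 18. Among the 7 was the ninth *Fgfr2* site, through the start of the long transcript. The nearest principal TSS to that site was *Ctbp2*, at 34.585 kb.

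*Fgf8*, the ligand of the rostral patterning centre, and *Fgf17*, a ligand of the same subfamily, had no listed site within the window. From the principal TSS of *Fgf8*, the nearest site lay 596.887 kb upstream with 15 protein-coding TSSs between, the site being nearest to *Cuedc2*. For *Fgf17* the nearest site was 357.885 kb upstream, nearest to *Gfra2*, with 4 TSSs between. Both genes were farther from a site than the median protein-coding gene, at 177 kb, and 79.27% and 68.13% of genes were as near or nearer.

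The Sprouty genes were all without a listed site. *Spry1* was 219.754 kb from a site, *Spry4* 559.894 kb and *Spry2* 1358.87 kb, and the shares of genes as near or nearer were 55.69%, 78.08% and 91.91%. Of the 10 genes, *Spry2* was also the one with no other protein-coding TSS within 100 kb, which held for 12.89% of genes, while the median gene had 3. Genes with no site by the rule made up 62.63% of all protein-coding genes, so the absence at 5 of 10 genes is likewise near the background. Of the 10 genes, 6 were farther from a site than the median gene, *Fgfr2* among them by its principal TSS. *Fgfr3* was at the other end, with a site 1.069 kb from its principal TSS, and 5.894% of genes were as near or nearer.

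**Figure D3:**
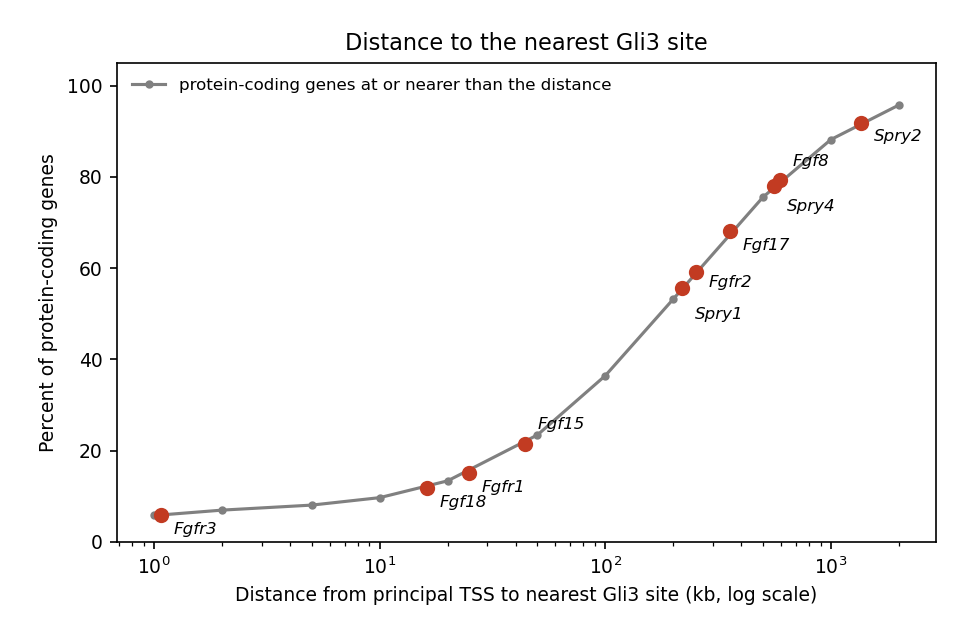
The x axis is the distance from the principal TSS to the nearest site in kb on a log scale, and the y axis is the percent of protein-coding genes with a site at or within that distance (grey line). Red points are the 10 genes: *Fgfr3* is at the left end at 1.069 kb and *Spry2* at the right at 1358.87 kb.

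A site with its midpoint within 2 kb of the gene-level TSS was found for 1 of the 10 genes, *Fgfr3*. The share over all protein-coding genes was 6.88%. At the limits of the rule, the site farthest from a gene-level TSS among those taken by distance was that of *Fgf15*, and the nearest site outside any window was also at *Fgf15*, 114.811 kb away (chr7:144780669-144782772).

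Among the 18 sites 14 were wider than the median of the list, 7 of them in the 9 sites of the principal transcripts. Promoter sites, within 2 kb of any transcript start, were 4 of 18, and 3 of the 9 sites of the principal transcripts, against 45.65% of all sites. In *Fgfr3* 1 of 6 was a promoter site.

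**Figure D4:**
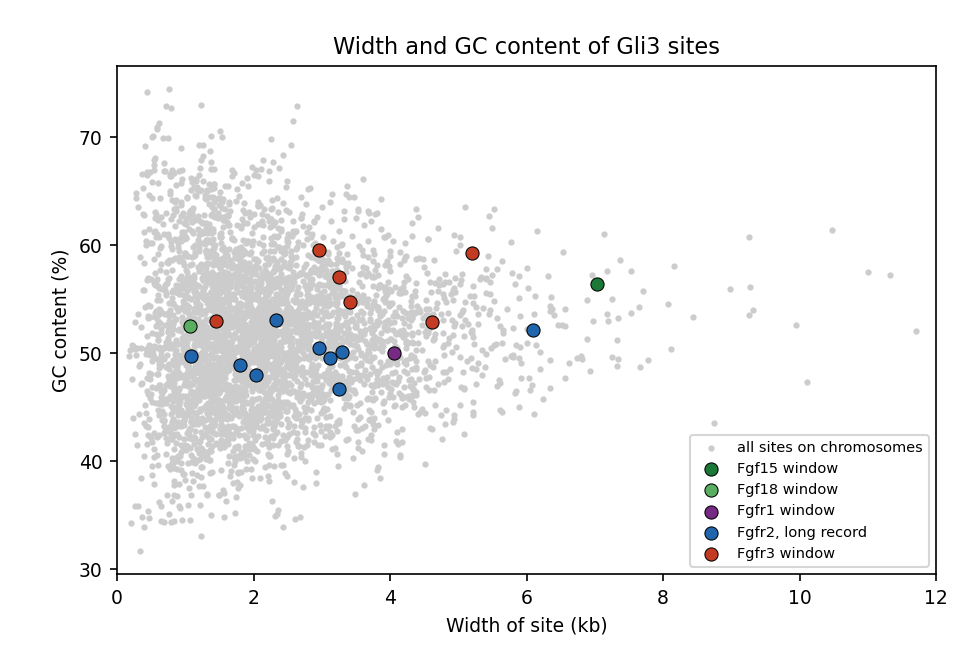
The x axis is the width of a site in kb and the y axis its GC content in percent. Grey points are all 4099 sites on assembled chromosomes and coloured points the 18 sites taken by the rule. The 6 at *Fgfr3* have a GC content of 52.85% to 59.53%, and the widest of the 18, at 7030 bp, is the one in the *Fgf15* window.

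Words of other factor families were counted in the same way, on both strands. The E-box word occurred in 16 of the 18 sites, 6 of 6 at *Fgfr3*, against 68.63% of all sites and 60.73% of flanks. Its density was 0.7961 matches per kb, against 0.6747 over all sites. The TCF word ATCAAAG of the Wnt pathway occurred in 11 of the 18 sites, against 25.74% of all sites and 29.5% of flanks, or 0.2202 against 0.1377 matches per kb. The SP word occurred in 6 of the 18, of which 4 were at *Fgfr3*, and in 33.79% of all sites. Its density was 0.1186 per kb against 0.2825. The homeodomain word TAATTA was in 7 sites and in 38.16% of all sites, with 0.1863 against 0.2624 matches per kb. The SOX word AACAATG was in 5 sites and in 22.91% of all sites, with 0.1186 against 0.1222 matches per kb. The ETS word CCGGAAG was in 3 sites and in 19.96% of all sites, with 0.05082 against 0.1092 matches per kb. These counts include the sites that rest on the long *Fgfr2* transcript. Of the 9 sites of the principal transcripts, 8 held the E-box word, 5 the TCF word and 5 the SP word. The homeodomain word was in 4 of these 9, the SOX word in 3 and the ETS word in 2. A wide site holds more letters and so more matches of any word, and for that reason the densities stand beside the shares. A match describes letters in the window and not binding.

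The other genes of the pathway were counted by the same rule, from a list of 61 genes on assembled chromosomes. Of these 26 had a site, or 42.62%, beside 37.4% of all protein-coding genes. By role, 9 of 18 other ligands had a site, 2 of 7 other receptors and receptor partners, 4 of 9 other feedback regulators and targets, 10 of 18 signal transduction genes and 1 of 9 heparan sulfate genes. A site nearest to the gene itself was found for 12 of the 61, beside 12.7% of all protein-coding genes. A site with an exact core was found for 6 of the 61, beside 6.16%.

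A site within 2 kb of the gene-level TSS was found for 5 of the 61, beside 6.88% of all protein-coding genes, and 4 of them are described. *Dusp6* encodes an ERK phosphatase induced by Fgf signals, and its site, chr10:99260872-99265198, had the midpoint 196 bp upstream of the TSS. The midpoints of the other 3 described were downstream of their TSS. *Hs2st1*, a heparan sulfate sulfotransferase gene, had the site chr3:144568840-144571384 at 0.069 kb. *Fgf11*, which encodes an intracellular Fgf homologue, had chr11:69799279-69803278 at 0.579 kb, and *Gab1*, an adaptor gene, had chr8:80878710-80880960 at 0.684 kb. The most sites were at *Flrt1*, a gene for a membrane protein that binds Fgf receptors, with 5, of which 3 were nearest to it. *Fgf11* and *Cbl*, a ubiquitin ligase gene, had 3 each. *Fgfr3*, with 6, thus had more sites than any of the 61 other pathway genes when adjacent sites were counted separately. With sites within 1 kb merged it had 4, and the other genes are not given for merged sites.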

How the data were processed

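Cortex of wild-type mice at embryonic day 15 was used for 3 Gli3 ChIP and 3 input DNA libraries. Per the file headers, paired ends were used at 85 bases each, repeats were filtered, reads were mapped to mm10 with bowtie2, and the authors deposited the peaks of the optimal set, chosen over the replicates by their irreproducible discovery rate (IDR). The submitters' processing notes also name SAMtools and MACS2. Peak and IDR thresholds are not given in the sources used here. The deposited values are positions, so no height, depth or replicate error could be used, and the number and width of sites follow the authors' thresholds.

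The 10 genes and the lists of pathway genes and motif words were chosen with earlier results of these data known. Starts were converted to 1-based coordinates. Sites were assigned by midpoint to GENCODE M21 gene records, and 15 sites on scaffolds were left out of shares. The principal transcript was the APPRIS principal protein-coding one, the longest among equals. Words were counted as exact matches on both strands in GRCm38.p6 sequence, and flanks of equal length started 1 site length from each edge. Intervals are 95% Wilson intervals. No test was run, since there is 1 list. Genes named beside the 10 were those nearest to their sites, the genes holding or flanking those sites, and, in the pathway lists, those with a site within 2 kb or the 3 with the most sites, ties included. The result for 1 such gene and the sequence of 1 near match are not reported here. Alternatives were other windows, site classes, transcripts and motif criteria. The counting code was tested on simulated data. Python 3.11.15, numpy 2.4.6, scipy 1.17.1 and pysam 0.24.0 were used.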

Additional observations from a re-analysis of the deposited data

How the results depend on the processing

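The 6 sites at *Fgfr3*, the site at *Fgfr1* and the lack of sites at *Fgf8*, *Fgf17* and the Sprouty genes differed by no more than 1.5 times under each of the 9 ways of assigning sites. The lowest count at *Fgfr3* was 4, when sites within 1 kb were merged. The number of the 10 genes with a site was 5, and it was 3 when only sites nearest to the TSS of the gene were kept and 3 when only sites outside promoters were kept. The number of sites was 18, and it was 10 for 100 kb around the TSS without the gene body, 7 for sites nearest to the TSS of the gene, and 9 with the principal transcript, an alternative added after seeing the data. *Fgfr2* kept 1 site in the first and second of these and 0 in the last. For the other pathway genes the count of 26 became 13 with 50 kb plus the gene body, 12 with sites nearest to the TSS of the gene and 11 with sites outside promoters. The share of all protein-coding genes, 37.4%, was 25.2% with 50 kb, 53.6% with 200 kb, 36.5% without the gene body, 12.7% with sites nearest to the TSS, 15.3% outside promoters and 23.3% with sites of at least the median width. The count of genes with a site at the gene TSS was 1, and 0 within 1 kb of the gene TSS or 2 kb upstream only, since the midpoint at *Fgfr3* lies 1119 bp downstream. Exact cores were in 3 sites, in 1 for an exact match in the central 500 bp, and in 13 with 1 mismatch allowed.

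Leaving out a replicate could not be run because the replicates are joined in 1 list. No paired analysis was possible because the list holds no value per library. Read depth is unknown, so a missing site cannot be told apart from one under the authors' threshold.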
